A study of Mus musculus and Rattus norvegicus with 28 samples.

Results

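The comparison described here is the accessible chromatin of postnatal day 1 (P1) mouse cardiomyocytes against that of embryonic day 18.5 (E18.5) cardiomyocytes, as held in 4 peak lists, 2 libraries per time point. Overlapping peaks of the 4 lists were merged into 42297 regions. A region was called gained when both P1 lists and neither E18.5 list held a peak in it, and lost in the opposite case. There were 3973 gained regions, 9.39% of the merged regions, and 1002 lost regions, 2.37%. A further 5514 regions, 13.0%, were held by all 4 lists and are called common. The rest were held by other combinations of lists. Merging all 8 lists of the series gave 113857 regions.

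All groups were wild-type C57BL/6 mice, with no transgene or treatment. Cardiomyocytes were taken from left ventricles at E18.5 and P1, and also at P3 and P7, which serve below only as later lists. The ventricles were digested with enzymes and other cells were reduced by preplating, so the preparations could keep non-cardiomyocytes. Accessibility was measured by ATAC-seq, and RNA-seq libraries, 2 per time point, covered the same ages. The methods call the libraries of a time point biological replicates, and the labels do not tie them to separate animals or pools, so p-values measure the spread between these libraries.

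In ATAC-seq a transposase inserts adapters where DNA is not covered by nucleosomes, so peaks mark promoters, enhancers and other open sites. Promoters of widely expressed genes are CpG-rich and open in most cells, while enhancers lie farther from genes and differ more between cell states. Birth exposes the heart to oxygen, new load and a switch of fuel from glucose and lactate toward fatty acids. AP1 factors (dimers of the Jun and Fos families), TEAD factors of the Hippo pathway, MEF2 and GATA factors are known to bind enhancers in heart cells.

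Example sequences are shown first, from the GRCm38 reference, plus strand, 5′ to 3′. Each is the longest stretch outside annotated exons within the central 200 bases of its region, so that promoter windows can lie off centre, and the build is that of the peak lists. Genes named with regions outside promoters are those of the nearest transcript start, and an intronic region can lie in another gene. The strongest gained regions outside promoters that hold an AP1 site, TGACTCA or TGAGTCA, and that were present in all 4 later lists, come first. They lay at chr7:70267140-70267339 (intronic, nearest Gm29327), chr13:9061506-9061705 (intronic, nearest Gm36264), chr8:128165075-128165274 (between genes, nearest Mir21c) and chr6:97952961-97953160 (intronic, nearest Mitf, a transcription factor gene). Capitals mark AP1 sites, TEAD sites (GGAATG or its reverse complement) and E-boxes (CAGCTG).
gained, AP1 1: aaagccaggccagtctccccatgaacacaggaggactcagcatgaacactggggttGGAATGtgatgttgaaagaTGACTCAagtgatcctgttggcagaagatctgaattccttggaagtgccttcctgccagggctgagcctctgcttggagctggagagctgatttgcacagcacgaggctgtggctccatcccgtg
gained, AP1 2: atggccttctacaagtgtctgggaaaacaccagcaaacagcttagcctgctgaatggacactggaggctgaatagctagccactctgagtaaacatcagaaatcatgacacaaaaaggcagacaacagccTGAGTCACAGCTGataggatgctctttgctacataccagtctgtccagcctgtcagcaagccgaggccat
gained, AP1 3: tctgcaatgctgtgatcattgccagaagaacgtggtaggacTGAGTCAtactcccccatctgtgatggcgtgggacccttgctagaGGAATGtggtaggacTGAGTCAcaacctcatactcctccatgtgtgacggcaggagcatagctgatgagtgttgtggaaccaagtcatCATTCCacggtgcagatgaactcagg
gained, AP1 4: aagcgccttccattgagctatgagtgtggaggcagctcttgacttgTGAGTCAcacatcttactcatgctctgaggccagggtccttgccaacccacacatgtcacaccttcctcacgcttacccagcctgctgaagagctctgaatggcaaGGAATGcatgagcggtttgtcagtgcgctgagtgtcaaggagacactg
Their fold enrichments, the peak height over local background given by the peak caller, were 14.4 and 9.04 in P1 replicates 1 and 2 for the first, 11.7 and 8.59 for the second, 10.9 and 8.22 for the third and 12.3 and 7.60 for the fourth. Neither E18.5 list held a peak there. These regions were picked for their AP1 site and their later peaks, so they do not stand for gained regions at large. Outside promoters 8.91% of the gained regions held an AP1 site, against 11.7% of all merged regions.

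A second kind of gained region was made of simple repeats and was in no later list. One of the strongest lay at chr19:57251234-57251423, an intronic site with Ablim1, an actin-binding protein gene, nearest. Capitals mark the CA runs on either strand.
gained, CA repeat: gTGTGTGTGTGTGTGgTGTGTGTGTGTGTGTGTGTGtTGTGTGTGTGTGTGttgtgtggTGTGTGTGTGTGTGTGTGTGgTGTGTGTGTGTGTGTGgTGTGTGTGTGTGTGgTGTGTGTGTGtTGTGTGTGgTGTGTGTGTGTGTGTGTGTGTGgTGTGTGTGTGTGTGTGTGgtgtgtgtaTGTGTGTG
The CA runs took 164 of its 190 bases, and its fold enrichments were 9.31 and 8.02.

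Lost regions outside promoters are shown by the strongest with an AP1 site and by the strongest with a MEF2 site. Those with an AP1 site lay at chr2:30712131-30712330 (between genes) and chr6:70872240-70872439 (intronic, nearest Eif2ak3, which codes for a stress kinase of the endoplasmic reticulum). Those with a MEF2 site lay at chr16:89830225-89830424 (intronic, nearest Tiam1, a Rac activator gene) and chr5:113114352-113114551 (intronic, nearest F830115B05Rik). Capitals mark AP1, TEAD and E-box sites in the first pair and MEF2 sites in the second.
lost, AP1 1: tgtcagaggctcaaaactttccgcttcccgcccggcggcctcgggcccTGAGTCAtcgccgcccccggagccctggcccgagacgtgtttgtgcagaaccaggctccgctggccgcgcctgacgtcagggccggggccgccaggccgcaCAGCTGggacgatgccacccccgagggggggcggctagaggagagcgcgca
lost, AP1 2: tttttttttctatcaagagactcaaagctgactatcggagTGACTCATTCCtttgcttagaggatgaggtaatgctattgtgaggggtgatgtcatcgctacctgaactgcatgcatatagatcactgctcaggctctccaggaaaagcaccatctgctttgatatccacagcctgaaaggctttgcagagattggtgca
lost, MEF2 1: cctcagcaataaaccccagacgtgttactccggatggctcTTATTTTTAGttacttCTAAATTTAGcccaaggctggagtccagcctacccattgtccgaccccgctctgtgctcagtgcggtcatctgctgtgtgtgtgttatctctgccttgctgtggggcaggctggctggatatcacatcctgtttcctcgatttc
lost, MEF2 2: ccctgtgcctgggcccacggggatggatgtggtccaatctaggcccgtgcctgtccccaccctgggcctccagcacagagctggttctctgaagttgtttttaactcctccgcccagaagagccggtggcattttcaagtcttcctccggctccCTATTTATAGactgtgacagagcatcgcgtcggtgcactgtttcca
In E18.5 replicates 1 and 2 the fold enrichments were 7.23 and 5.74 and, at the site nearest Eif2ak3, 6.78 and 8.78. At the site nearest Tiam1 they were 6.38 and 5.17.

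Most lost regions were promoters. The examples shown were taken from genes with an RNA call. They are Hey1, a Notch target that encodes a transcriptional repressor, Cldn5, a tight-junction protein of endothelium, and Cdkn2a, which encodes cell cycle inhibitors. The windows were chr3:8667521-8667720, chr16:18776679-18776846 and chr4:89294654-89294823, and capitals mark CpG. The gained promoter region of Timp1, an inhibitor of matrix metalloproteinases, at chrX:20870062-20870165, follows. The Timp1 window held none of the AP1, TEAD or E-box letters.
Hey1: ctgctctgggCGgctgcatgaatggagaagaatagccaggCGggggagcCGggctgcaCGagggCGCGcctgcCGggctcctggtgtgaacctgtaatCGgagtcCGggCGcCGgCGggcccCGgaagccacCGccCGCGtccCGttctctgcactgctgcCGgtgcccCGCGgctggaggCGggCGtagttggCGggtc
Cldn5: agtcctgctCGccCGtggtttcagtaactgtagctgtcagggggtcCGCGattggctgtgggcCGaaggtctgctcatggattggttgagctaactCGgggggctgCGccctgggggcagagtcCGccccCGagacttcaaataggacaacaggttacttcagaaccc
Cdkn2a: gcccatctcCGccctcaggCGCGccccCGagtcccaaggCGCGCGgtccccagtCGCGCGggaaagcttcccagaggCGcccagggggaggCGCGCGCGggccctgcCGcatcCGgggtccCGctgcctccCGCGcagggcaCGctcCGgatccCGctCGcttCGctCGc
Timp1: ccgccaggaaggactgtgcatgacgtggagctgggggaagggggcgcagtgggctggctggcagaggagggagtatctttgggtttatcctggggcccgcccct
There were 23 CpG in the Hey1 window, 9 in the Cldn5 window and 26 in the Cdkn2a window. The Cldn5 region was in no later list, as were 7 of the 811 lost promoter regions, while 691 were in all 4. By q value the Cldn5 and Cdkn2a regions were at percentile ranks of 41.0 and 34.7 in E18.5 replicate 1. In E18.5 replicate 2 their ranks were 16.2 and 8.64.

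The number of gained regions depended on the length of the lists. The E18.5 lists held 13149 and 14910 peaks, and the P1 lists held 29281 and 19753. When each list was cut to its 13149 strongest peaks by the q value column, 27449 regions remained after merging, of which 1269 (4.62%) were gained, 2302 (8.39%) lost and 4353 (15.9%) common. Gained regions thus outnumbered lost regions in the lists as deposited, and lost regions outnumbered gained ones at equal list length. The order turned back at equal list length without P1 replicate 1 (6980 gained and 4135 lost) and without P1 replicate 2 (4506 and 2622). It did not without E18.5 replicate 1 (1699 gained and 5354 lost) or without E18.5 replicate 2 (1828 and 5367). With a list left out, the other list of that age alone decides presence, so these counts cannot settle the order. Where peaks had to cover 0.5 of a region, the deposited lists gave 3267 gained and 3243 lost regions. The q values at the end of the shortened lists also differed, with −log10 q of 1.35 and 3.01 at E18.5 and 6.33 and 3.17 at P1. Read depth is not given by peak lists, so whether a missing peak means closed chromatin or fewer reads cannot be told apart. With 2 libraries against 2, an exact two-sided permutation test cannot go below p = 0.333, and no p is given for these counts.

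**Figure D1:**
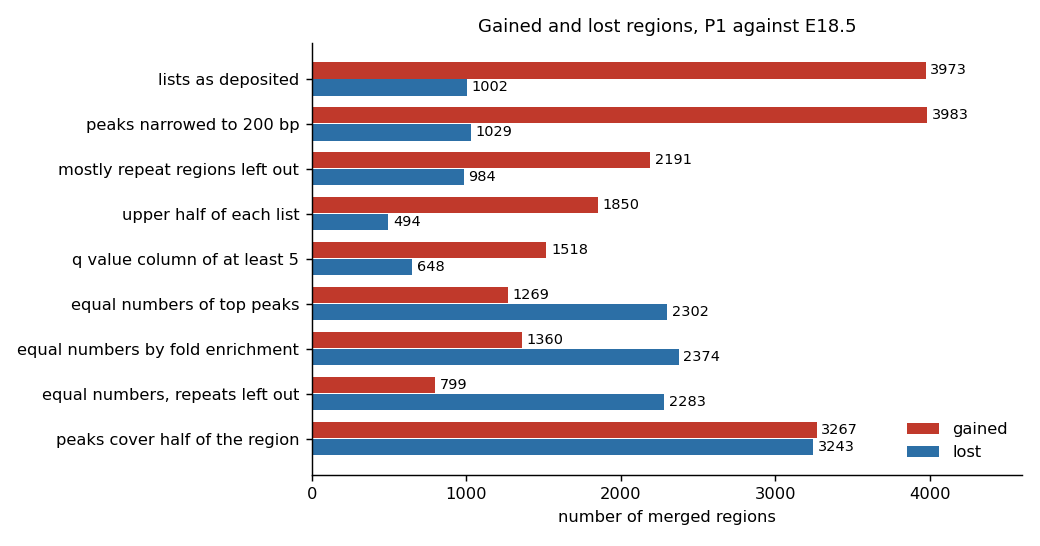
Number of gained (red) and lost (blue) merged regions under 9 ways of making the lists, with the x axis counting regions. Gained regions outnumber lost ones in the deposited lists (3973 against 1002), and the order turns with equal numbers of top peaks (1269 against 2302).

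P1 replicate 2 stood apart from the other lists. Of its peaks, 14.5% held a CA repeat of at least 8 copies, against 0.610% and 1.19% in the E18.5 lists, 5.85% in P1 replicate 1 and between 1.19% and 1.48% at P3 and P7. Between 42.8% and 49.6% of its peaks were also in any 1 of the later lists, against 68.6% to 76.9% for P1 replicate 1, 78.7% to 83.3% for E18.5 replicate 2 and 92.1% to 96.5% for E18.5 replicate 1. Without P1 replicate 2, 15973 regions were gained and 1085 lost, and without P1 replicate 1, 12102 were gained and 3734 lost. Without E18.5 replicate 1 the counts were 4570 and 4084, and without E18.5 replicate 2 they were 4965 and 2911. Peak names in E18.5 replicate 2 and both P1 lists carried a shared prefix that E18.5 replicate 1 did not carry, and what the prefix stands for is not given in the sources used here. The counts without E18.5 replicate 1 are therefore also those within that prefix.

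Most gained regions lay away from transcript starts and most lost regions lay at promoters. A promoter region was one whose midpoint was within 2.5 kb of an annotated transcript start. Of the gained regions 18.7% (743) were promoter regions, against 80.9% (811) of the lost and 81.7% (4506) of the common regions, and 40.3% of all merged regions. At equal list length the shares were 20.1%, 81.5% and 81.7%. The median distance to a start was 10.1 kb for gained, 0.140 kb for lost and 0.0890 kb for common regions. Of the gained regions 41.8% (1661) were in introns outside promoters and 37.7% (1497) were between genes, against 8.68% and 9.58% of the lost. Gained regions were narrower, with a median width of 267 bp, than lost (408 bp) or common (560 bp) regions. Without E18.5 replicate 1 the promoter share of lost regions fell to 45.4%, and that of gained regions was 24.1%.

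**Figure D2:**
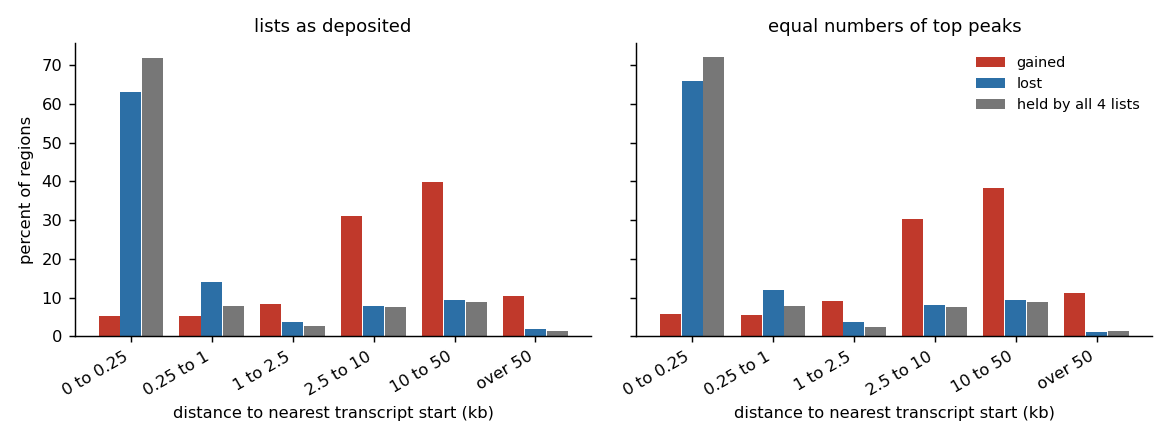
Percent of gained, lost and common regions on placed chromosomes (y axis) by distance from the region midpoint to the nearest transcript start in kb (x axis), for the deposited lists (left) and for equal numbers of top peaks (right). Lost and common regions pile up within 0.25 kb (63.1% and 71.8% in the deposited lists), while 39.8% of the gained regions lie 10 to 50 kb away.

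The lists themselves showed the same ordering in promoter content. Among the 13149 strongest peaks, 77.5% and 66.5% were at promoters at E18.5 and 57.5% and 42.7% at P1. Both P1 lists were below both E18.5 lists. At P3 the shares were 47.5% and 58.3% and at P7 55.3% and 71.1%, so the later lists overlapped those of both ages.

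Gained and lost regions were mostly not the strongest peaks of their lists. The median percentile rank by q value of gained regions was 45.2 in P1 replicate 1 and 57.7 in P1 replicate 2, and that of lost regions was 33.3 and 34.7 in the E18.5 lists. Common regions ranked at a median of 75.2 and 77.2 at E18.5 and 87.0 and 73.9 at P1. Median fold enrichment was 5.46 and 4.70 for gained regions at P1, 5.31 and 5.14 for lost regions at E18.5, and between 5.31 and 8.05 for common regions over the 4 lists. By median rank, gained and lost regions were below common regions in each list that held them.

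Whether the regions were open later was read from the P3 and P7 lists, which the rule did not use. Of the gained regions 27.1% (1076) overlapped a peak in all 4 later lists, and 42.9% (1706) overlapped none. Of the lost regions 79.6% (798) were in all 4 later lists and 23 were in none. Common regions were in all 4 in 97.4% of cases, and all merged regions in 46.6%. These shares depended on the later lists being longer, with 35898 to 95257 peaks. With the 13149 strongest peaks of all 8 lists, 19.6% of the gained, 14.4% of the lost and 72.8% of the common regions were in all 4 later lists, and 56.0%, 26.6% and 2.85% were in none. Single later lists of that length held 23.8%, 44.4%, 40.4% and 60.2% of the lost regions in P3 replicates 1 and 2 and P7 replicates 1 and 2. Regions held by P1 replicate 1 alone numbered 11790, of which 42.9% were in all 4 later lists, and those held by P1 replicate 2 alone numbered 8060, of which 86.8% were in none.

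Gained regions in all 4 later lists differed in sequence from those in none. Sites were counted in the 200 bp around each midpoint on both strands, and a match is a description, not a bound site. Gained regions in all 4 later lists held an AP1 site in 27.1% of cases, against 0.414% of those in no later list, 6.19% of the lost, 5.18% of the common and 9.28% of all merged regions. Lost regions in all 4 later lists held one in 5.89%, but 86.6% of them were promoter regions, against 29.4% of the gained regions in all 4. The letters GTACTAC or GTAGTAC, a control of the same composition, were in 0.651% of both gained groups. TEAD sites were in 23.9% of the gained regions in all later lists and 1.72% of those in none, against 11.7% of all merged regions. E-boxes were in 23.8% and 3.90% of the same groups, against 13.6% of all merged regions.

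Gained regions in no later list were mostly repeats. On average 70.1% of their bases were repeat-masked and 36.4% of the regions held a CA repeat, against 9.66% and 2.51% for gained regions in all later lists. Over 50% of the bases were repeat-masked in 1207 of the 1691 that had sequence. For lost regions the repeat share was 6.31% with a CA repeat in 0.499%, for common regions 7.44% and 0.529%, and for all merged regions 28.1% and 8.55%. Repeat-masked bases were also frequent in 1 E18.5 list. Among the 13149 strongest peaks outside promoters they took 12.4% and 39.3% in E18.5 replicates 1 and 2, and 21.3% and 53.1% at P1. Regions outside promoters held by E18.5 replicate 2 alone were 65.8% repeat-masked, but 1.04% held a CA repeat. Lost regions had to be held by E18.5 replicate 1 as well. Leaving out the mostly repeat regions left 2191 gained and 984 lost regions, and 799 and 2283 at equal list length.

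**Figure D3:**
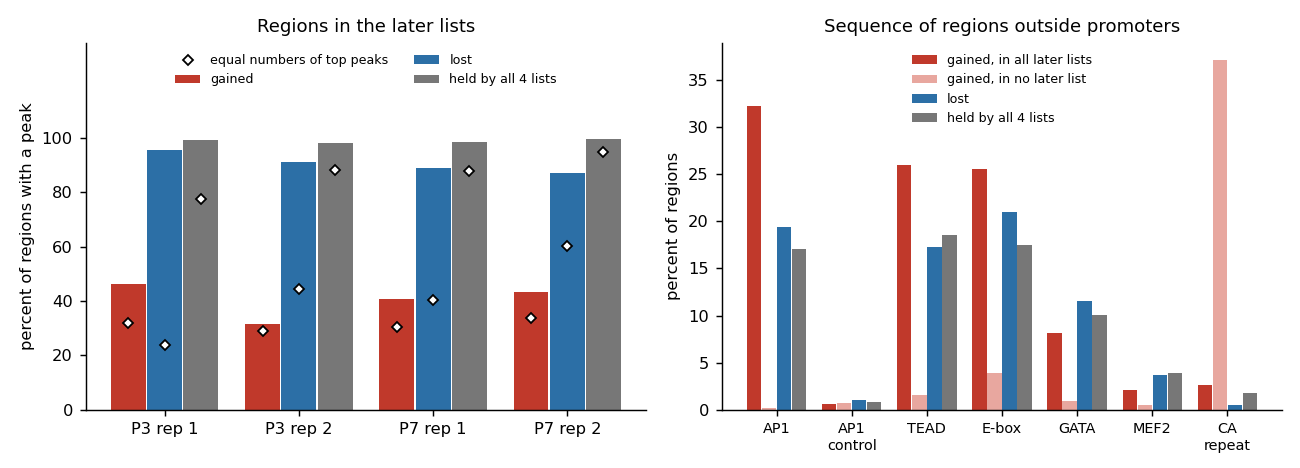
Left, percent of gained, lost and common regions (y axis) with a peak in each P3 and P7 list, with diamonds for the 13149 strongest peaks of every list. Right, percent of regions outside promoters (y axis) with each motif or repeat, for gained regions in all or in no later list, lost and common regions. AP1 sites stand in 32.3% of the gained regions outside promoters that were in all later lists and in 0.206% of those in none, and CA repeats in 2.64% and 37.1%.

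Outside promoters the AP1 share was 32.3% in gained regions of all later lists, 19.4% in the 191 lost regions and 17.1% in the 1008 common regions. These lost and common regions were not chosen by the later lists. Neither were those that follow, which are not gained regions. Regions outside promoters held by E18.5 replicate 1 and both P1 lists had an AP1 site in 23.8%. Those held by P1 replicate 1 alone had one in 19.8%, and those held by P1 replicate 2 alone in 1.83%. At equal list length these shares were 28.1%, 29.4% and 2.02%. In the 107 lost regions outside promoters that were in all 4 later lists, the AP1 share was 25.2%. GATA sites (AGATAA) were in 8.17% of the gained regions of all later lists, 11.5% of the 191 lost and 10.01% of the common regions. Gained regions outside promoters as a whole, with those in no later list, held an AP1 site in 8.91%, below the 11.7% of all merged regions outside promoters. MEF2 sites were in 1.29% of gained, 3.66% of lost and 3.88% of common regions outside promoters, and a scrambled MEF2 control in 0.596%, 1.57% and 0.817%. These gained regions include the repeat-rich ones in no later list. Among regions outside promoters in all 4 later lists, MEF2 sites were in 2.11% of gained and 2.80% of lost regions. The control was in 0.659% and 0.935% of these. At equal list length the MEF2 share was 7.73% in the 427 lost, 3.64% in the common and 1.20% in the gained regions, and the control was in 0.937%, 0.650% and 0.601%.

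AP1 shares did not separate the lists of E18.5 from those of P1. Among the 13149 strongest peaks outside promoters, AP1 sites were in 18.4% and 12.1% at E18.5 and in 22.8% and 6.54% at P1, so the groups overlapped. They were in 31.3% and 28.9% at P3 and 30.6% and 29.95% at P7, above all 4 earlier lists. MEF2 shares were 5.03% and 3.85% at E18.5 and 3.33% and 1.09% at P1, with both P1 lists below both E18.5 lists, and 1.78% to 2.51% at P3 and P7. CA repeats were in 1.64% and 2.52% at E18.5, 6.12% and 22.0% at P1 and 1.04% to 1.28% later.

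**Figure D4:**
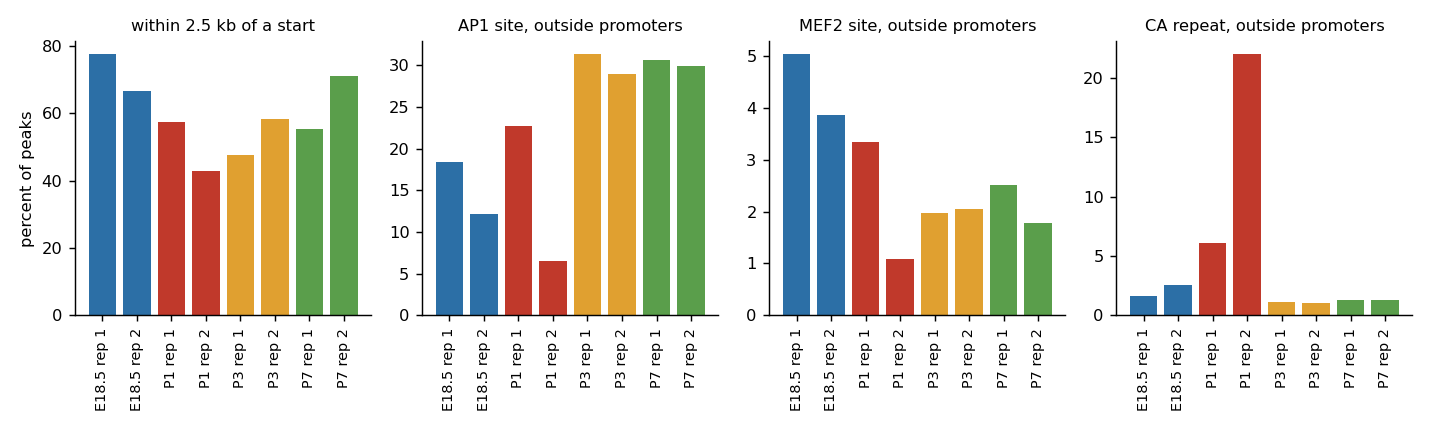
Percent of the 13149 strongest peaks of each of 8 lists (bars, coloured by age) within 2.5 kb of a transcript start, and percent of those outside promoters with an AP1 site, a MEF2 site or a CA repeat. P1 replicate 2 has the fewest promoter peaks (42.7%) and the most CA repeats (22.0%), and the AP1 share of the P1 lists lies on both sides of the E18.5 lists.

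Promoter regions that were lost had high GC content, as common promoters did, but fewer CCAAT boxes. GC content was 66.6% in lost, 65.1% in common and 55.5% in gained promoter regions. CpG per 100 bp were 8.74, 8.59 and 2.93. CCAAT was in 14.9% of the lost promoter regions, 34.8% of the common and 15.1% of the gained, against 23.1% of all promoter regions. Counted over whole regions, which are wider when common, CCAAT was in 30.04% of lost and 55.5% of common regions.

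At common regions the height of the peak could be compared, since the rule used only presence. Of 5514 regions, limma on quantile-normalised log2 fold enrichment called 48 higher at P1 (0.871%) and 30 lower (0.544%) at an adjusted p under 0.05. These calls rested on all 4 libraries: without P1 replicate 2 none was called in either direction, with 231 higher and 200 lower at an unadjusted p under 0.05, 2 were higher and 0 lower without E18.5 replicate 1, 28 and 5 without E18.5 replicate 2, and 2 and 1 without P1 replicate 1. Median centring gave 94 higher and 28 lower, and ranks by q value gave 18 and 0. The higher regions were at promoters in 41.7% of cases and 16 were mostly repeat, while 27 of the 30 lower regions were promoters.

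The largest rise among the 5514 was at chr9:101097584-101097854, an intronic region with Gm37553 nearest. Of its central 200 bp, 64.5% was repeat-masked. Fold enrichment there was 10.3 and 6.22 at E18.5 and 23.5 and 22.1 at P1, with no overlap (log2 difference 1.42 ± 0.20, SE, limma adjusted p = 2.71e-07). The promoter region of Naaa, which encodes a lysosomal amidase, fell from 11.05 and 8.44 to 4.93 and 3.14 (log2 difference -1.27 ± 0.24, SE, limma adjusted p = 4.87e-04). Atf2, which encodes a partner of Jun, was nearest to a higher intronic region, and Dusp6, which encodes a phosphatase of ERK, had a higher promoter region, with log2 differences of 0.97 and 0.94. Both genes were chosen after their values were seen, and other regions rose more. Their RNA was not called (log2 fold changes 0.03 and 0.06). By ranks of q value the Dusp6 and Naaa regions lost their calls (limma adjusted p = 0.0697 and 0.072).

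RNA of the same ages was set beside the promoters. Gene expression was read as FPKM (fragments scaled to transcript length and to the mapped fragments of the library), and 13979 genes were tested on log2(FPKM + 1), a scale that understates changes of low genes. Of these, 1411 were higher at P1 (10.1%) and 847 lower (6.06%), with limma's adjusted p below 0.05 and a change of more than 1 on the log2 scale. The median log2 change of all genes was 0.15. With median-of-ratios size factors it was -0.01 and the calls were 1012 higher and 1201 lower, so 45.7% of calls were higher in place of 62.5%, and the balance of directions depends on the scaling.

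Genes with a gained promoter region numbered 804, or 1.45% of the genes in the files, and those with a lost one 1022, or 1.84%. Of 411 tested genes with a gained promoter region, 50 were higher (12.2%) and 28 lower (6.81%). Of 779 with a lost promoter region, 63 were higher (8.09%) and 53 lower (6.80%). Both are near the 10.1% and 6.06% of all genes tested. Among genes with a common promoter region, 314 of 4627 were higher and 203 lower. Genes with no promoter peak in any list had 360 of 2842 higher and 274 lower. Genes with a gained or lost promoter region thus had RNA calls in both directions, at shares near those of all genes tested.

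**Figure D5:**
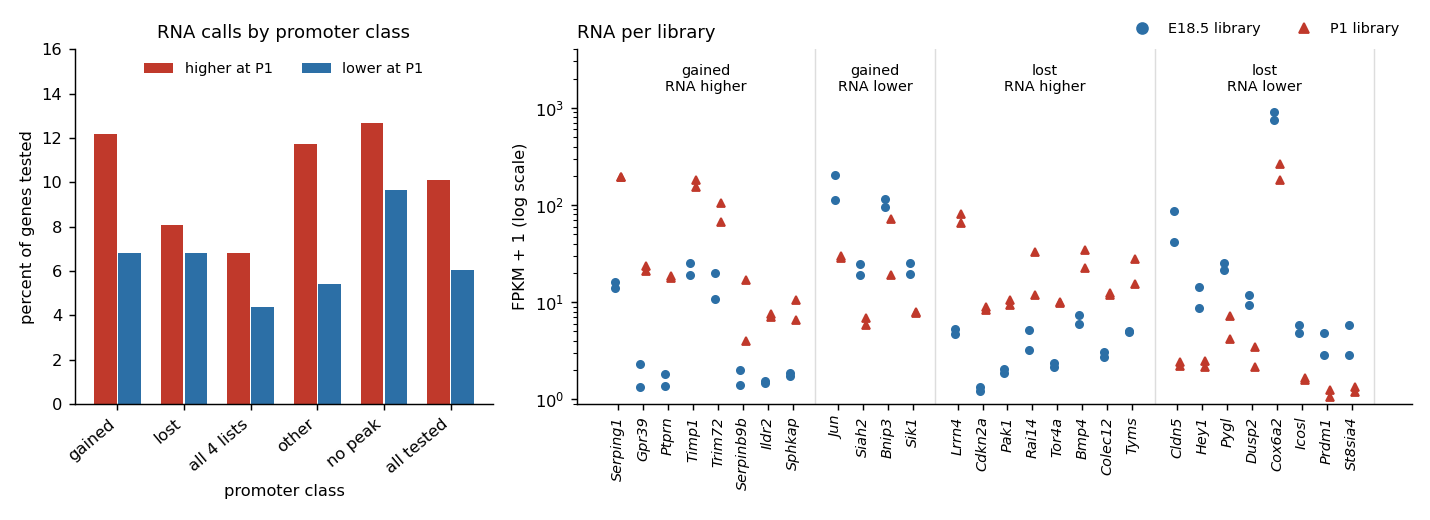
Left, percent of tested genes whose RNA was higher or lower at P1 (y axis) by promoter class. Right, FPKM + 1 on a log axis in each E18.5 (circles) and P1 (triangles) library for the genes named for a gained or lost promoter region and an RNA call. The gained class has 12.2% higher and 6.81% lower, and the circles and triangles of each gene do not overlap.

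Other cells and blood moved with age in the RNA. Summed FPKM of 10 erythroid markers was 29047 and 35396 at E18.5 and 8.36 and 41.2 at P1, and all 7 tested, globins and Alas2 among them, were lower. The globin genes include near-identical copies between which reads may be split. Of 12 fibroblast markers 7 were higher and 1 lower, and their sum was 487 and 489 at E18.5 and 1234 and 1447 at P1. The sum of 12 cardiomyocyte markers was 25891 and 33289 at E18.5 and 12363 and 20204 at P1, with Ttn and Myl2 lower. Endothelial markers summed to 468 and 251 at E18.5 and 338 and 318 at P1. Macrophage markers were at 47.00 and 44.2 at E18.5 and 39.4 and 51.2 at P1. Smooth muscle and pericyte markers, which include Acta2, summed to 431 and 560 at E18.5 and 1127 and 1052 at P1. Of these 10 markers 2 were higher and 2 lower. Epicardial markers, which include Lrrn4, summed to 149 and 153 at E18.5 and 268 and 353 at P1. Of these 8 markers 4 were higher and 1 lower. In such bulk samples fewer cells of a type and less RNA per cell cannot be told apart, and the part of these cells in the changes below was not tested. Of the defining markers with ATAC-seq data, Tnnt2, a sarcomere gene of cardiomyocytes, had a promoter region in all 4 lists, and Pecam1 of endothelium and Dcn of fibroblasts had none in any. Other markers differed. All 12 cardiomyocyte markers had a promoter region in at least 1 list. Of 12 endothelial markers 7 had none, and Kdr and Flt1 had a lost one. Of 12 fibroblast markers 6 had none, Dpt had a gained one and 1 other a common one. Of 10 macrophage markers 7 had none, Cx3cr1 had a gained one and 1 other a common one. At equal list length Flt1 and Dpt kept their class, and Kdr and Cx3cr1 did not.

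Gained promoter regions with higher RNA included those of Serping1 and Timp1. Serping1, the complement C1 inhibitor, had a gained region at chr2:84774847-84775063 with fold enrichments of 5.94 and 4.96. Its FPKM was 13.1 and 15.05 at E18.5 and 193 and 195 at P1, with no overlap (log2 fold change 3.69 ± 0.15 (SE), limma adjusted p = 1.28e-05). The window of Timp1 shown above had fold enrichments of 4.13 and 3.98, and its FPKM was 24.3 and 18.1 at E18.5 and 181 and 153 at P1 (log2 fold change 2.93 ± 0.17 (SE), limma adjusted p = 4.04e-05). For Timp1 and Serping1 the regions were in all 4 later lists, and neither passed the rule at equal list length.

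Gpr39, a zinc-sensing receptor, had a gained promoter region at chr1:125676859-125677165 with fold enrichments of 9.63 and 5.41. The region was gained at equal list length too and was in all 4 later lists. Its FPKM was 1.29 and 0.327 at E18.5 and 19.8 and 22.4 at P1 (log2 fold change 3.66 ± 0.25 (SE), limma adjusted p = 5.80e-05). Ptprn, which encodes a membrane protein of secretory vesicles, rose too (0.807 and 0.376 to 16.9 and 17.5 FPKM, log2 fold change 3.53 ± 0.23 (SE), limma adjusted p = 5.02e-05), but its gained region was all repeat, was in no later list and was not gained at equal list length.

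Trim72, which encodes the membrane-repair protein MG53, had a gained region at chr7:128003770-128003977 with fold enrichments of 6.69 and 3.61 and no later peak, and it was not gained at equal list length. Its FPKM was 18.8 and 9.82 at E18.5 and 65.96 and 104 at P1 (log2 fold change 2.52 ± 0.43 (SE), limma adjusted p = 0.00279), and both P1 values were above both E18.5 values. Sphkap, an anchoring protein for a sphingosine kinase, Ildr2 and Serpinb9b, a protease inhibitor, were also higher, at log2 fold changes of 2.22, 2.28 and 2.29, and none of these 3 was gained at equal list length. The call of Serpinb9b was lost without a filter on low values (2.29, adjusted p = 0.107), without E18.5 replicate 1 (2.55, adjusted p = 0.0746), without E18.5 replicate 2 (2.02, adjusted p = 0.144) and without P1 replicate 1 (1.24, adjusted p = 0.150) by limma.

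Gained promoter regions with lower RNA were led by Jun, which encodes an AP1 subunit. Its gained region, at chr4:95053205-95053440, lay beside a common promoter region, with fold enrichments of 4.40 and 4.12. For Jun, FPKM was 111 and 202 at E18.5 and 27.4 and 28.7 at P1 (log2 fold change -2.38 ± 0.25 (SE), limma adjusted p = 3.61e-04), and both P1 values were below both E18.5 values. Ier2, another immediate early gene, fell from 87.8 and 82.8 to 25.7 and 36.5 FPKM (log2 fold change -1.45 ± 0.21 (SE), limma adjusted p = 0.00136), and its gained region held an AP1 site. Siah2, a ubiquitin ligase of the hypoxia pathway, fell to 4.87 and 5.82 from 17.96 and 23.8 FPKM (log2 fold change -1.78 ± 0.17 (SE), limma adjusted p = 2.45e-04). Sik1, a salt-inducible kinase, was lower as well (log2 fold change -1.51 ± 0.19, SE). The regions of Jun, Siah2 and Bnip3 were gained at equal list length too, and those of Ier2 and Sik1 were not. Bnip3, a mitochondrial protein induced by low oxygen, was lower with a wide spread at P1 (18.1 and 71.1 FPKM against 95.6 and 115, log2 fold change -1.51 ± 0.51 (SE), limma adjusted p = 0.0443). The call of Bnip3 was lost without a filter on low values (-1.51, adjusted p = 0.144), with TPM (-1.29, adjusted p = 0.0752), with the 4 libraries of E18.5 and P1 alone (-1.51, adjusted p = 0.0562), without E18.5 replicate 1 (-1.65, adjusted p = 0.111), without E18.5 replicate 2 (-1.38, adjusted p = 0.178) and without P1 replicate 1 (-0.56, adjusted p = 0.111) by limma.

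A gained promoter region with low fold enrichments at P1, 2.53 and 2.61, was also mitochondrial sequence. The medians of all gained regions were 5.46 and 4.70. The region at chr1:24613165-24616146 is a copy of mitochondrial DNA in which all 31-base words occur in the mitochondrial genome, and it is the promoter region of Gm10925, Gm28437, Gm28438, Gm28661 and other predicted genes. Reads of such copies and of mitochondria cannot be told apart. Gm28438 had 2272 and 1443 FPKM at E18.5 and 483 and 557 at P1, and Gm10925 had 16646 and 15760.0 at E18.5 and 6152 and 6592 at P1. Log2 fold changes of Gm28437 and Gm28661 were -1.47 ± 0.16 and -1.51 ± 0.15 (SE). The promoter region of Gm10719 and Gm26870 on chromosome 9 was wholly repeat. Gm10252 was also lower (log2 fold change -2.26 ± 0.23, SE), and its promoter was not gained at equal list length.

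Lost promoter regions with lower RNA included those of Cldn5, Hey1 and Kdr. For Cldn5 the fold enrichments at chr16:18776674-18776883 were 5.36 and 4.47 at E18.5, and no later list held a peak there. Its FPKM was 85.2 and 41.1 at E18.5 and 1.41 and 1.20 at P1, with no overlap (log2 fold change -4.71 ± 0.31 (SE), limma adjusted p = 5.48e-05). Hey1, whose region at chr3:8667471-8667770 had 5.17 and 5.26, fell from 13.2 and 7.63 to 1.48 and 1.14 FPKM (log2 fold change -2.27 ± 0.24 (SE), limma adjusted p = 3.77e-04), and its region was in all 4 later lists. Kdr, a VEGF receptor of endothelium, fell from 28.01 and 13.1 to 4.76 and 6.70 FPKM (log2 fold change -1.60 ± 0.32 (SE), limma adjusted p = 0.00529) with a lost promoter region at chr5:75978269-75978636, which was not lost at equal list length. At E18.5 Cldn5, Kdr and the summed endothelial markers, which include Kdr, were all higher in replicate 1. The summed markers overlapped between the ages (468 and 251 at E18.5, 338 and 318 at P1), and the part of endothelial cells was not tested.

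Pygl, liver glycogen phosphorylase, had 7.64 and 7.35 fold enrichment at chr12:70227426-70227873 and was among the strongest lost promoters. Its FPKM was 20.4 and 24.4 at E18.5 and 3.20 and 6.15 at P1 (log2 fold change -2.09 ± 0.26 (SE), limma adjusted p = 7.06e-04). Cox6a2, the muscle form of a cytochrome c oxidase subunit, fell from 749 and 913 to 180.2 and 263 FPKM (log2 fold change -1.92 ± 0.52 (SE), limma adjusted p = 0.0194), a call lost without a filter on low values (-1.92, adjusted p = 0.0824), without E18.5 replicate 1 (-2.06, adjusted p = 0.0644), without E18.5 replicate 2 (-1.78, adjusted p = 0.105) and without P1 replicate 1 (-1.65, adjusted p = 0.101) by limma. Pfkm, muscle phosphofructokinase, had 9.24 and 6.01 fold enrichment at chr15:98093061-98093561 and fell from 100.7 and 139 to 42.1 and 65.99 FPKM (log2 fold change -1.15 ± 0.24 (SE), limma adjusted p = 0.00646). The call of Pfkm was lost with TPM (-0.92, adjusted p = 0.0154), without E18.5 replicate 2 (-0.92, adjusted p = 0.0475) and without P1 replicate 1 (-0.83, adjusted p = 0.0359) by limma. Hadha and Hadhb, the subunits of the mitochondrial trifunctional protein, share a lost promoter region at chr5:30155085-30155552, with 5.95 and 4.60. Hadha fell from 250.3 and 281 to 103.01 and 109 FPKM (log2 fold change -1.32 ± 0.13 (SE), limma adjusted p = 2.95e-04), and Hadhb from 200.3 and 216 to 92.5 and 91.3 (log2 fold change -1.17 ± 0.14 (SE), limma adjusted p = 5.48e-04). The call of Hadhb was lost with TPM (-0.94, adjusted p = 0.00110) by limma.

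The other genes with a lost promoter region and lower RNA were Dusp2, a MAP kinase phosphatase, Icosl, an immune costimulator, Prdm1, a transcriptional repressor, and St8sia4, a polysialyltransferase. Prdm1 had 2 lost regions, at chr10:44458568-44458885 and at chr10:44529245-44529678. Its FPKM was 3.83 and 1.87 at E18.5 and 0.0630 and 0.257 at P1 (log2 fold change -1.69 ± 0.26 (SE), limma adjusted p = 0.00168). Log2 fold changes of Dusp2, Icosl and St8sia4 were -1.92 ± 0.25, -1.71 ± 0.20 and -1.68 ± 0.32 (SE).

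Lost promoter regions also went with higher RNA. Lrrn4, a marker of epicardium and mesothelium, had a lost region at chr2:132879384-132879778 with 6.94 and 3.47, and its FPKM was 4.25 and 3.70 at E18.5 and 63.6 and 79.96 at P1 (log2 fold change 3.86 ± 0.25 (SE), limma adjusted p = 5.46e-05). For Cdkn2a, with 5.59 and 4.52 in the lost region, FPKM was 0.215 and 0.336 at E18.5 and 7.39 and 7.92 at P1 (log2 fold change 2.76 ± 0.15 (SE), limma adjusted p = 3.45e-05). For both genes the P1 libraries were above the E18.5 libraries and the region was in all 4 later lists. Bmp4, a secreted growth factor, rose from 6.43 and 4.92 to 33.5 and 21.5 FPKM (log2 fold change 2.07 ± 0.29 (SE), limma adjusted p = 0.00107). Tyms, thymidylate synthase, rose from 3.92 and 4.04 to 27.02 and 14.5 (log2 fold change 2.07 ± 0.25 (SE), limma adjusted p = 6.02e-04). Pak1, a kinase, Rai14, Tor4a and Colec12, a scavenger receptor, were higher by log2 2.34 ± 0.16, 2.28 ± 0.42, 2.15 ± 0.14 and 2.07 ± 0.15 (SE). The promoters of Lrrn4, Cdkn2a, Tyms and Pak1 were not lost at equal list length. Pqlc2, a lysosomal amino acid transporter that shares a lost region with Akr7a5, rose from 1.63 and 1.34 to 6.51 and 4.84 FPKM (log2 fold change 1.42 ± 0.21 (SE), limma adjusted p = 0.00145).

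The strongest lost promoters with no RNA call included those of Tmub1 and Fastk, which share a region, Vps13b, Tmcc3, Blmh and Arhgef28, with E18.5 fold enrichments between 7.30 and 9.62, and all of these regions were in all 4 later lists. Over all genes tested, 16.2% had an RNA call. Fastk, a mitochondrial RNA-binding protein, was at 45.7 and 67.4 FPKM at E18.5 and 31.8 and 39.9 at P1 (limma adjusted p = 0.0406, below the fold required).

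Gene groups were read through the promoter classes, with the RNA counts to be read against the 10.1% higher and 6.06% lower of all genes tested. Among genes with a promoter region 4.77% were gained and 6.06% lost in the deposited lists, and 1.77% and 16.3% at equal list length. Of 26 fatty acid oxidation genes 23 were tested, and 16 were lower and 0 higher. Of these genes 9 had a common promoter region, Lpl and Slc25a20 a gained one, and Hadha and Hadhb the lost one. Neither Lpl nor Slc25a20 was gained at equal list length, and Cpt2 was lost there as well. The median log2 change of the group was -1.25, against 0.15 for all genes. Slc25a20, the mitochondrial carnitine carrier, was at 46.4 and 49.3 FPKM at E18.5 and 25.2 and 24.9 at P1 (log2 fold change -0.91 ± 0.15, SE), short of the fold required, and it was called lower with median-of-ratios size factors (-1.11, limma adjusted p = 0.00118). Of 25 sarcomere genes 8 were lower and 0 higher, with gained regions at Myl3 and Myom2 and a lost one at Myl4. None of these 3 had its class at equal list length, and Myl2, Ttn, Myom1 and Csrp3 were lost instead. Myl3, the ventricular essential light chain, had 4291 and 5148 FPKM at E18.5 and 1404 and 1988 at P1 and was not called (limma adjusted p = 0.0642). It was called lower with median-of-ratios size factors (-1.70, limma adjusted p = 0.0438) and with the 4 libraries of E18.5 and P1 alone (-1.49, limma adjusted p = 0.00599), and Myl4 with median-of-ratios size factors (-1.13, limma adjusted p = 0.0477).

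Of 20 immediate early and stress genes 15 were lower and none was higher, against 6.06% and 10.1% of all genes tested. Of these 20, 13 had a common promoter region, Ier2 a gained one, and Myc both a gained and a lost one. No gene of this group was gained or lost at equal list length. Myc fell from 56.9 and 54.3 to 27.1 and 22.5 FPKM (log2 fold change -1.14 ± 0.14 (SE), limma adjusted p = 5.69e-04), a call lost with TPM (-0.92, adjusted p = 0.00156) by limma. Of 12 AP1 subunit genes 6 were lower, namely Fos, Fosb, Jun, Junb, Atf3 and Mafk, and Jun alone had a gained or lost promoter region, at either list length. Extracellular matrix genes were higher in 13 of 22 and lower in 2, against 10.1% and 6.06% of all genes tested, with Timp1 gained and Col5a1 and Lamb1 lost. Timp1 was not gained at equal list length, and Col4a1 and Col4a2 were lost as well. Col5a1, a fibrillar collagen, rose from 16.4 and 15.2 to 34.3 and 34.9 FPKM (log2 fold change 1.09 ± 0.18 (SE), limma adjusted p = 0.00225), a call lost with median-of-ratios size factors.

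Cell cycle genes had 3 lost promoter regions among 24, at Cdk2, Aurkb and Cdkn1c, against 6.06% of all genes with a promoter region. Cdkn1a was lost as well at equal list length. In RNA Ccnd1 and Plk1 were higher, and Cdkn1a and Cdkn1c lower. Cdkn1c, a cyclin-dependent kinase inhibitor, fell from 40.7 and 45.9 to 13.7 and 21.2 FPKM (log2 fold change -1.29 ± 0.28 (SE), limma adjusted p = 0.00813), a call lost without E18.5 replicate 2 (-1.21, adjusted p = 0.0538) and without P1 replicate 1 (-0.99, adjusted p = 0.0537) by limma. Aurkb, a mitotic kinase, was at 9.56 and 12.1 FPKM at E18.5 and 21.5 and 19.8 at P1, below the fold required, and was called higher with TPM (1.14, limma adjusted p = 6.39e-04) and without E18.5 replicate 2 (1.03, limma adjusted p = 0.00412). In the membrane repair group Trim72 was gained and Anxa2 and Cavin1 lost, while 4 of 11 genes were higher and 1 lower. Anxa2 alone of these 3 had its class at equal list length. Acta2, smooth muscle actin, had a gained region at chr19:34255233-34255680 and 352 and 480.1 FPKM at E18.5 against 723 and 755 at P1, not called at the fold required. It was called higher with TPM (1.08, limma adjusted p = 0.00135) and without E18.5 replicate 2 (1.07, limma adjusted p = 0.00672). Dpt, a fibroblast marker, had a gained region with an AP1 site at chr1:164798425-164798836 and fell from 13.9 and 11.4 to 8.05 and 3.67 FPKM (log2 fold change -1.07 ± 0.29 (SE), limma adjusted p = 0.0198), while 7 other fibroblast markers rose. The call of Dpt was lost without a filter on low values (-1.07, adjusted p = 0.0711), with TPM (-0.91, adjusted p = 0.0440), without E18.5 replicate 1 (-0.94, adjusted p = 0.0969), without E18.5 replicate 2 (-1.20, adjusted p = 0.0556) and without P1 replicate 2 (-0.59, adjusted p = 0.0699) by limma.

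The groups that follow are to be read against 4.77% gained and 6.06% lost of all genes with a promoter region, and 1.77% and 16.3% at equal list length. The 22 calcium handling genes had gained regions at Ryr2, the calcium release channel, and Camk2d, a calcium-dependent kinase, and lost ones at Fkbp1b and Kcnh2. Their RNA was higher in 2 and lower in 1 of 21 tested. At equal list length Camk2d was gained, and Fkbp1b and Gja5 were lost. Among 20 cardiac transcription factors Myocd had a gained region and Tead1 both kinds, and at equal list length Myocd had both kinds and Tead1 a lost one. Their RNA was higher in 1 and lower in 2 of 19 tested. Of 14 hypoxia genes Bnip3 and Mxi1 were gained and Vegfa lost, while at equal list length Mxi1 turned to lost, Ndrg1 was lost too, and Bnip3 and Vegfa kept their class. RNA of 3 of the 14 was higher and of 3 lower. Of 24 glycolysis genes Pfkp was gained and Pfkm lost at either length, and Slc2a1, Ldha and Pfkfb3 were lost at equal length alone. RNA was higher in 1 and lower in 4 of 23 tested. The 19 genes of the circadian and glucocorticoid group had 1 gained region, at Tef, and at equal length Fkbp5 and Zbtb16 were lost as well. RNA was lower in 4 and higher in 0 of 18 tested. PPAR, ERR and PGC1 genes had none of either kind in the deposited lists and a lost one at Ppargc1a at equal length, and 0 of 12 tested were called in RNA.

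The other genes that the study names beside ATAC-seq had common or mixed promoter regions, or none. Adamts1, a matrix protease, had 2 common promoter regions and fell from 44.7 and 44.1 to 18.03 and 16.1 FPKM (log2 fold change -1.33 ± 0.12 (SE), limma adjusted p = 2.11e-04). Common promoters were also found at Stmn1, Cfap20, Hmgb2, Irs2 and Gstm1, whose RNA was not called, but Stmn1 was called lower with median-of-ratios size factors (-1.05, limma adjusted p = 0.00253), and at equal list length Cfap20 was lost. Timp3, an inhibitor of matrix proteases, had mixed regions and rose from 35.7 and 38.5 to 119 and 105 FPKM (log2 fold change 1.56 ± 0.14 (SE), limma adjusted p = 1.63e-04). Csf1, a macrophage growth factor, had a region in both E18.5 lists and P1 replicate 1, was lost at equal list length, and rose from 45.3 and 27.5 to 205 and 138 (log2 fold change 2.22 ± 0.25 (SE), limma adjusted p = 4.61e-04). At Ereg, which encodes an EGF receptor ligand, and Nexn, a Z-disc gene, P1 replicate 1 alone held a promoter peak. Ereg rose from 2.35 and 1.71 to 13.9 and 4.13 FPKM (log2 fold change 1.54 ± 0.43 (SE), limma adjusted p = 0.0214), a call lost without a filter on low values (1.54, adjusted p = 0.0832), without E18.5 replicate 1 (1.69, adjusted p = 0.0608), without E18.5 replicate 2 (1.39, adjusted p = 0.113) and without P1 replicate 1 (0.77, adjusted p = 0.0531) by limma. Dcn, a matrix proteoglycan gene without a promoter peak, rose from 85.5 and 84.5 to 393 and 412 FPKM (log2 fold change 2.23 ± 0.10 (SE), limma adjusted p = 1.86e-05).

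Gained regions outside promoters clustered little around single genes. The highest numbers were 7 each with Rny3 and Gm47283 as the nearest gene, 6 with Epg5 and 5 each with Gm23215 and Gm21182, and many of these were mostly repeat (3 at Rny3, 5 at Gm47283, 4 at Gm23215). Lost regions outside promoters had a different nearest gene each, 191 in all. Among the strongest gained ones in all later lists were intronic sites with Mitf, Col18a1 and Mrtfb nearest and a site 7.24 kb from Nup93, a nuclear pore gene, with fold enrichments of 9.58 and 11.9. Of the 5 nearest genes of the strongest such regions that were tested in RNA, Mitf (-0.49), Col18a1 (-0.71), Gm21811 (-0.49) and Mrtfb (0.10, log2 fold changes by limma) were not called. RNA of Nup93 rose by 1.13 on the log2 scale (limma adjusted p = 2.50e-04), a call lost with median-of-ratios size factors (0.94, adjusted p = 6.77e-04) by limma. Among the strongest lost ones was an intronic site with Cdh5, the endothelial cadherin, nearest, with 7.47 and 5.85 at E18.5.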

How the data were processed

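ATAC-seq peak lists (2 libraries per time point) and RNA-seq transcript tables of mouse cardiomyocytes were used, and 12 other samples were left out. Per the labels and methods, the authors aligned ATAC-seq reads with Bowtie2, removed duplicates and called peaks per library with MACS2. The deposited lists give fold enrichment (a ratio), −log10 p, −log10 q and a score. RNA reads were aligned with HISAT2 2.1.0, and the deposited FPKM and TPM values come from StringTie 1.3.5. Transcript FPKM were summed per gene (55450 genes).

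Peaks overlapping by 1 bp were merged. Genes with FPKM of at least 1 in 2 libraries were tested with limma 3.58.1 (trend) on log2(FPKM + 1) over 8 libraries, with Benjamini-Hochberg adjustment. Sites and RefSeq sequences were read with pysam 0.24.0 from GRCm38, and 199 merged regions were on unplaced scaffolds. Both limma fits and the region rule were tested on simulated data. Named genes were those the study names beside ATAC-seq, the 12 strongest promoter regions, the 8 largest RNA changes of each class and direction, the nearest genes of most and strongest regions outside promoters, and 22 gene lists. Some items are not reported here. Members and lists were chosen with earlier results of these data known. CA repeats were chosen after gained sequences were seen. ATAC-seq read depth is unknown from the lists, and limma p-values measure spread between 2 libraries per group.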

Additional observations from a re-analysis of the deposited data

How the results depend on the processing

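Gained regions numbered 1269 with equal numbers of top peaks, 1360 when these were taken by fold enrichment, 1518 with −log10 q of at least 5, 1850 in the upper part (0.5) of each list, 2191 without mostly repeat regions (chosen after seeing the data), and 4570 to 15973 leaving out 1 library. Lost regions numbered 2302, 2374, 648, 494 and, where peaks had to cover 0.5 of the region, 3243, with 1085 to 4084 leaving out 1 library. The promoter share of gained regions was 20.1%, 22.0% (q), 29.2% (upper part), 22.3% (narrowed to 200 bp) and 24.3% (repeats out), and 15.9% to 24.98% leaving out 1 library. That of lost regions was 86.6% (q), 90.5% (upper part) and 87.4% (cover), and 45.4% to 81.2%. At equal list length, alternatives added after seeing the data gave 799 gained regions without repeats and 3726 lost with cover, with 1699 to 6980 gained and 2622 to 5367 lost leaving out 1 library. Promoter shares were then 25.97% (narrowed) and 24.9% (repeats out) for gained, 15.7% to 29.7% leaving out 1 library, and 86.7% (cover) for lost, 55.3% to 81.7%. Common regions higher at P1 numbered 94 with median centring, 18 by percentile rank, and 0 to 28 leaving out 1 library, and lower ones 0 by percentile rank and 0 to 5. RNA higher at P1 counted 2636 with TPM, and 1275 to 1602 (lower 701 to 1041) leaving out 1 library. Genes with a gained promoter numbered 435 at 1 kb, 1422 at 5 kb and 263 at equal list length, and with a lost promoter 2411 at equal list length. Shares in all 4 later lists were 19.6% of gained, 14.4% of lost and 72.8% of common regions at equal length of 8 lists, and 38.5% of gained and 96.0% of common without P1 replicate 2. AP1 was in 31.2% of gained regions in all later lists and 10.5% of lost regions over whole regions, and repeats took 73.8% of bases of gained regions in no later list at equal list length. The cause of these shifts was not tested. RNA of Nexn, uncalled, turned to 0.028 on the log2 scale with TPM.

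With a replicate block 1421 genes were higher and 849 lower in RNA, and 45 common regions were higher and 31 lower. Replicate numbers did not pair the samples, with correlations of deviations of 0.171 between E18.5 and P1 in RNA, -0.096 to 0.116 between other ages, and 0.006 at common regions. Of 49 called named genes 38 kept the call under all 10 RNA alternatives and 11 lost it under at least 1, and none reversed.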
